A study of Mus musculus with 26 samples.

Results

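Mot_1 is the authors' first cluster among thalamic neurons that project to the motor cortical system. Its members are all cells that the authors' cell table lists under that cluster name, 97 of the 484 motor cells and of the 1972 cells of the series. Fluorescent thalamic neurons, marked through a tracer taken up by their axons in the target region, were picked by hand, and transcripts of each cell were counted at their 3′ ends by molecular barcodes (UMIs, 1 per captured transcript). Slices were held in blockers of neural activity before the cells were freed. The motor cells came from 5 male mice, named here animals 1 to 5, for which the sources used here give no strain, genotype or treatment beyond the label. Animals 1 and 2 were in sequencing batch 1 with a listed age of 112, animal 3 was in batch 2 with a listed age of 71, and animals 4 and 5 were in batch 3 with a listed age of 69; the cell table gives no unit for age. The comparison clusters Mot_2 (152 cells), Mot_3 (159) and Mot_4 (69) came from the same animals and preparations. Another 7 motor cells had no cluster, and all 7 carried a flag of the authors.

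Thalamic relay neurons send glutamatergic axons to the cortex and pass on signals in either single spikes or bursts. Neurons that fire fast and conduct rapidly are known for a shared set of proteins: calcium buffers such as parvalbumin, Kv1 and Kv3 potassium channels that keep spikes short, the sodium channel subunit β4, neurofilaments that widen axons, and a fast calcium sensor for transmitter release. Such neurons also depend on mitochondria for their energy. The genes below are ordered by these roles.

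Counts were summed over the cells of a cluster in 1 animal, and levels are in CPM, a gene's share of all gene UMIs of such a sum on the usual scale, given as mean ± SD over animals. A sum needed 5 cells, so animal 2, with 1 Mot_2 cell, has no Mot_2 sum, which left 19 sums (5 for Mot_1). The authors' clusters may have been made from these same counts. Differences between clusters are therefore a description: log2 fold changes ± SE and calls of edgeR's quasi-likelihood fit at an adjusted p threshold of 0.05, with no p printed and nothing read from the number of calls. Against the mean of the other 3 clusters, 462 genes were called higher in Mot_1 and 310 lower, which is 3.67% and 2.46% of the 12591 genes in the fit and 6.13% together. The call rule took 363 genes as higher and 294 as lower than in Mot_2 (2.88% and 2.34%, together 5.22%), 80 and 100 against Mot_3 (0.635% and 0.794%, together 1.43%), and 540 and 411 against Mot_4 (4.29% and 3.26%, together 7.55%). Calls against all 3 clusters at the same time numbered 61 higher and 60 lower. Leaving out an animal moved the count against the mean of the others to 454 (animal 3), 503 (animal 4) or 421 (animal 5), and batch 1 alone gave 143 calls and batch 3 alone 240. Keeping only the Mot_1 cells of the authors' joint clusters 1 and 4 raised it to 1183, and DESeq2 gave 1314 calls, of which 49.8% were higher, beside 59.8% of the 772 calls of edgeR.

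Mot_1 made up a varying part of the motor cells. It held 12 of 74 cells in animal 1 (16.2%, exact 95% binomial interval 8.67 to 26.6%), 12 of 82 in animal 2 (14.6%, 7.80 to 24.2%), 24 of 165 in animal 3 (14.5%, 9.55 to 20.9%), 21 of 80 in animal 4 (26.2%, 17.04 to 37.3%) and 28 of 83 in animal 5 (33.7%, 23.7 to 44.9%). The mean was 21.1% ± 8.58 (SD, n = 5), and the 2 animals of batch 3 had the highest shares. The intervals cover counting error only, and batch, age and sort date cannot be told apart here.

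**Figure D1:**
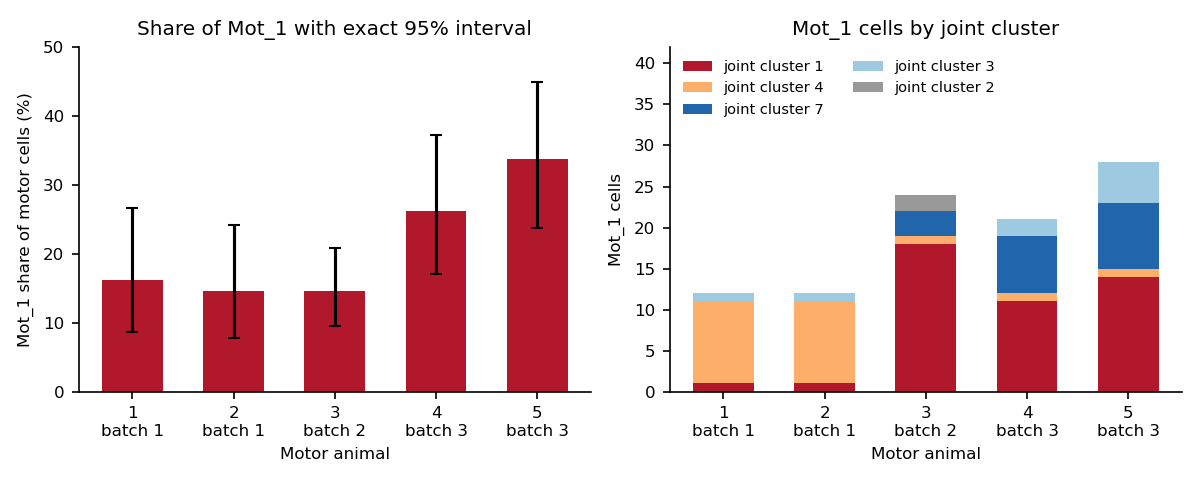
Left, Mot_1 cells as a percent of all motor cells in each animal, with exact 95% binomial intervals; right, the number of Mot_1 cells in each of the authors' joint clusters. The share runs from 14.5% to 33.7%, and joint cluster 4 holds most cells of animals 1 and 2 while joint cluster 1 is the largest group in animals 3 to 5.

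The labelled cell type was checked against marker genes. All 10 thalamic relay markers were detected in Mot_1, with a summed level of 6225 to 7779 CPM over animals, below the 9213 CPM or more of Mot_2. The vesicular glutamate transporter gene Slc17a6 and the thalamic transcription factor gene Tcf7l2 each had a UMI in 97 of 97 cells. Of 10 GABA neuron markers, Gad2, Slc32a1, Sst, Six3 and Dlx6os1 were at 0 UMIs in all Mot_1 sums, where 3 counts would be 0.181 CPM; the summed level of that list, 218 to 495 CPM, was almost all parvalbumin. Astrocyte markers summed to 0 to 4.24 CPM, with 7 of 10 at 0 including Aqp4 and Gfap. Microglia markers summed to 129 to 247 CPM, a range that overlapped Mot_2 (70.7 to 230.5), Mot_3 (108 to 182) and Mot_4 (79.2 to 331), with Csf1r, Tmem119, P2ry12, C1qc and Aif1 at 0. Cortical pyramidal markers summed to 366 to 496.5 CPM, above Mot_3 (101 to 250.2) and Mot_4 (91.9 to 205) and within the range of Mot_2 (250 to 652), with Neurod6, Neurod2 and Emx1 among those at 0. Habenula markers summed to 548 to 640 CPM, below Mot_3 (882 or more) and Mot_4 (1149 or more), with Pou4f1, Chrnb3, Chrna3 and Irx1 at 0. The part of these lists in the results was not tested. Oligodendrocyte markers summed to 10.4 to 33.9 CPM against 37.1 to 252 in Mot_4, and endothelial and mural markers to 1.27 to 17.7 CPM. Cells with 3 or more detected glial or vascular markers numbered 2 of 97, against 5 of 152, 14 of 159 and 5 of 69 in Mot_2, Mot_3 and Mot_4.

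Mot_1 cells tended to be read more deeply than the other motor cells. A Mot_1 cell held 23496 to 672026 UMIs (median 140009). The medians were 290826, 334268, 106063, 77682 and 128125 in animals 1 to 5, higher than in Mot_2 in 4 of 4 animals (mean ratio 1.65), than in Mot_3 in 5 of 5 (1.39) and than in Mot_4 in 5 of 5 (1.28). Spike-in RNA, whose share falls as a cell's own RNA rises, was lower in Mot_1 in every animal compared, with 4.43% ± 1.22 against 6.16% ± 1.33 in Mot_3 and 5.68% ± 1.43 in Mot_4 (n = 5) and 4.67% ± 1.26 against 7.98% ± 1.75 in Mot_2 (n = 4). These values rest on each animal's median cell. With the mean cell the difference from Mot_4 was -0.135 percentage points, within its SD of 1.02, in place of -1.25. The mitochondrial share was 2.02% ± 0.378 against 1.26% ± 0.442 in Mot_4, higher in 5 of 5 animals, while against Mot_2 and Mot_3 it was higher in 2 animals each. In two-sided exact paired permutation tests the smallest p is 0.0625 with 5 animals and 0.125 with 4, so no difference could pass 0.05. The adjusted p over the 12 tests was 0.15 for each, save the mitochondrial share against Mot_2 (0.75) and Mot_3 (0.341). With every cell thinned to 20546 UMIs, 518 of 8411 genes were called against the mean of the others, and 441 of these were among the 772 calls made without thinning.

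A group of 3 genes linked to calcium was high in Mot_1 and nearly absent from the other clusters, apart from low Pvalb levels in Mot_3. Pvalb (chr15:78191114-78206400, minus strand, mm10) encodes parvalbumin, a calcium buffer of fast-spiking neurons, and stood at 335, 495, 237, 217 and 290 CPM in animals 1 to 5. Its level was 6.26 ± 7.21 CPM in Mot_2 (n = 4), 25.4 ± 21.5 in Mot_3 and 0.201 ± 0.448 in Mot_4, where 1 UMI was found in all (n = 5 each). Every Mot_1 sum lay above every other sum, and the log2 fold change was 5.74 ± 0.55 against Mot_2 and 4.05 ± 0.44 against Mot_3. Syt2 (chr1:134646677-134762593, plus strand), the gene of the fast calcium sensor synaptotagmin 2, stood at 112, 84.9, 79.5, 130 and 174 CPM in Mot_1. Means in the other clusters were 1.30 ± 2.10, 0.519 ± 0.968 and 0.448 ± 0.836 CPM, with no overlap and log2 fold changes of 7.34 ± 1.01 against Mot_2 and 8.23 ± 0.94 against Mot_3. Stac2 (chr11:98036623-98053462, minus strand) encodes an adaptor protein that binds voltage-gated calcium channels. It stood at 99.3, 49.6, 44.4, 60.2 and 86.9 CPM in Mot_1, at 0.198 ± 0.321 CPM in Mot_2 and 0.162 ± 0.325 in Mot_3, and at 0 UMIs in Mot_4. With the counts of each cluster pooled and a floor of 3 counts over the Mot_4 sums, Stac2 was at least 186-fold higher in Mot_1.

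These genes were not found in every Mot_1 cell. Pvalb had a UMI in 74 of 97 cells, Syt2 in 39 and Stac2 in 42, against 13 of 152, 3 and 2 cells of Mot_2, 68 of 159, 5 and 4 of Mot_3, and 1 of 69, 2 and 0 of Mot_4. After thinning to equal depth the shares for Pvalb were 63.9% in Mot_1, 3.29% in Mot_2, 23.3% in Mot_3 and 1.45% in Mot_4. All 3 genes were detected together in 30 Mot_1 cells (25 after thinning) and in 0 cells of the other clusters, which allows a share of cells with UMIs of all 3 of up to 1.97% in Mot_2, 1.89% in Mot_3 and 4.35% in Mot_4. These limits cover detection at these depths, not expression, and the genes were picked for their high level in Mot_1. In 21 Mot_1 cells none of them was found.

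**Figure D2:**
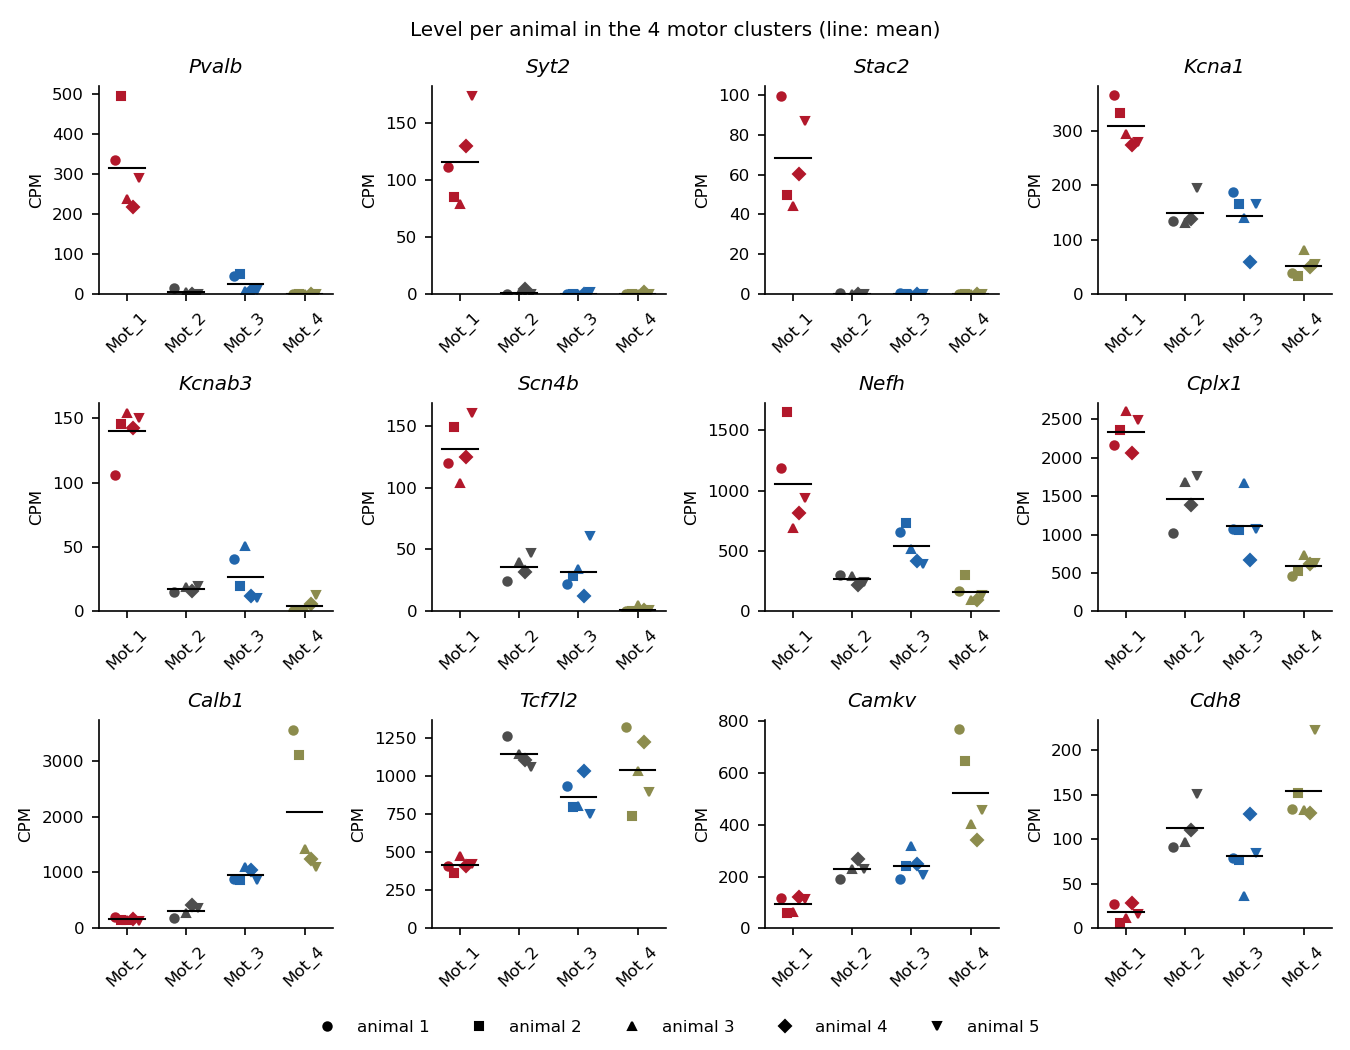
Level (CPM) of 12 genes in each animal's sum of Mot_1, Mot_2, Mot_3 and Mot_4; symbols mark the animal and lines the mean. Pvalb, Syt2 and Stac2 lie near the axis in the other clusters, and Tcf7l2, Camkv and Cdh8 are lowest in all 5 Mot_1 sums.

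Other genes with the largest folds were of lower level. Car8, a carbonic anhydrase-related protein that binds the inositol trisphosphate receptor, stood at 106, 91.4, 41.8, 115 and 97.8 CPM in Mot_1, against 6.00 ± 4.12 in Mot_2, 21.9 ± 10.8 in Mot_3, where it was not called, and 1 UMI in Mot_4. Casq2, the gene of the calcium store protein calsequestrin 2, averaged 16.2 ± 11.3 CPM in Mot_1 and was at 0 UMIs in both Mot_3 and Mot_4. That makes it at least 157-fold higher than in Mot_3 and at least 42.5-fold higher than in Mot_4. Mot_2 had 23 UMIs of Casq2, and the log2 fold change of 5.03 ± 1.61 against it had no call. The neuropeptide Y gene Npy stood at 20.5, 39.7, 28.3, 34.8 and 13.9 CPM and at 0 in Mot_4 (at least 72.6-fold), but overlapped Mot_3, which had 11.9 ± 10.9 CPM. Nrtn, the gene of the growth factor neurturin, was likewise at least 80.3-fold higher than in Mot_4 and overlapped Mot_3 (29.1 ± 20.1 against 15.8 ± 15.2 CPM). Lgals1, the gene of galectin 1, averaged 57.1 ± 46.7 CPM, of which animal 5 had 134 CPM and the other animals 22.1 to 66.1, against 7.37 ± 8.33 or less in the other clusters. The Lgals1 call against Mot_3 was lost without animal 2, 3 or 5, and without the cells that carried glial or vascular markers.

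Some potassium channel genes of the Kv1 type were called higher against the mean of the others, namely Kcna1, Kcna2 and the partner genes Kcnab2 and Kcnab3. Kcna2 had no call against Mot_2 or Mot_3. Kcna4, Kcna6 and Kcnab1 had no call against the mean of the others (log2 fold changes of 0.07, -1.03 and 0.68). Kcna1 encodes the Kv1.1 subunit and stood at 366, 333, 294, 274 and 280 CPM in Mot_1, above all other sums. The other clusters averaged 149 ± 30.4, 144 ± 50.2 and 52.04 ± 18.9 CPM, for log2 fold changes of 1.11 ± 0.28, 1.20 ± 0.26 and 2.62 ± 0.27. Kcnab3 (chr11:69326258-69333042, plus strand), a β subunit that joins Kv1 channels, stood at 106, 146, 154, 142 and 150 CPM in Mot_1. Its means elsewhere were 17.6 ± 2.31, 26.8 ± 17.9 and 4.22 ± 5.41 CPM, and the 5 Mot_1 sums lay above all of them, though leaving out animal 2, 3, 4 or 5 ended the call against Mot_3. The related Kcnab2 averaged 318 ± 32.1 CPM against 198 ± 39.0, 168 ± 17.9 and 107 ± 30.1. Of 26 Kv channel genes in the fit, 5 were called higher against the mean of the others (Kcnab3, Kcna1, Kcnab2, Kcna2 and the Kv3 subunit gene Kcnc1) and 1 lower. Over all genes 3.67% were called higher and 2.46% lower. Like Kcna2, Kcnc1 had no call against Mot_2 or Mot_3. The list median was 0.02 on the log2 scale, beside 0.03 over all genes. Among leak and calcium-activated potassium channels, 0 of 13 were higher and 1 lower, namely Kcnma1 (the large-conductance channel) at 168 ± 25.4 CPM against 280 ± 20.3, 267 ± 50.5 and 262 ± 49.0, with no call against Mot_3.

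Sodium channel genes split by member. Scn4b, whose β4 subunit lets channels reopen quickly after a spike, stood at 120, 149, 103, 124 and 160 CPM in Mot_1, above every other sum. Mot_2 had 36.0 ± 9.61 CPM, Mot_3 31.5 ± 18.03 and Mot_4 1.55 ± 2.01, for log2 fold changes of 2.03 ± 0.47, 2.27 ± 0.43 and 6.30 ± 0.56. The α subunit genes Scn1a and Scn8a were called higher against the mean of the others and against Mot_4 alone. Scn3a, an α subunit best known from immature neurons, was lower at 17.3 ± 6.55 CPM against 50.5 ± 16.6, 50.4 ± 8.32 and 71.2 ± 19.7. Scn3b, a β subunit gene, differed strongly among the Mot_1 animals, with 2.14, 1.04, 15.4, 85.2 and 30.5 CPM in animals 1 to 5. Its mean was 659 ± 104 CPM in Mot_4, and the Mot_1 range overlapped those of Mot_2 and Mot_3. Scn3b was still called lower against each of the 3 clusters. Of 11 listed sodium channel genes, 4 were called higher and 2 lower against the mean of the others, beside 3.67% and 2.46% of all genes. The α subunit gene Scn2a, which is not on that list, was called lower against each of the 3 clusters.

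Neurofilament genes were higher in Mot_1. Nefh, the heavy subunit, stood at 1191, 1648, 688, 814 and 936 CPM against 267 ± 39.1 in Mot_2, 542 ± 148 in Mot_3 and 160 ± 85.6 in Mot_4. Nefm, the medium subunit, averaged 2882 ± 256 CPM against 870 ± 166, 1265 ± 371 and 566 ± 347, and Nefl, the light subunit, 1280 ± 48.0 CPM against 447 ± 36.8, 734 ± 61.0 and 589 ± 172. The Nefm and Nefl sums of Mot_1 lay above all others, while the lowest Nefh sum of Mot_1 (animal 3) lay within the Mot_3 range. With the internexin gene Ina, 4 of 5 neurofilament genes were called higher and 0 lower, beside 3.67% and 2.46% of all genes, with a list median of 1.21. The fifth, the peripherin gene Prph, had 1 UMI in Mot_1 and 80.9 ± 112 CPM in Mot_4.

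Genes of transmitter release differed in either direction. Cplx1 encodes complexin 1, which clamps vesicles ready for release, and averaged 2337 ± 222 CPM against 1461 ± 337, 1108 ± 362 and 591 ± 104, with no overlap and log2 fold changes of 0.76 ± 0.16, 1.17 ± 0.14 and 2.04 ± 0.15. Vamp1, the gene of a vesicle membrane fusion protein, averaged 547 ± 110 CPM against 171 ± 66.8, 234 ± 23.5 and 74.6 ± 47.6. Its partner on the cell membrane, Snap25, averaged 5470 ± 747 CPM against 3325 ± 531, 4375 ± 420 and 3291 ± 761. Neither Vamp1 nor Snap25 was called against Mot_3. In the opposite direction, Stx1a, the gene of the fusion protein syntaxin 1A, had 1.22, 0.261, 5.79, 5.51 and 7.81 CPM against 25.8 ± 10.2, 32.7 ± 3.19 and 75.1 ± 11.9. The synaptotagmin gene Syt5 averaged 4.61 ± 4.26 CPM against 37.4 ± 24.6, 24.7 ± 10.3 and 161 ± 80.0, and the priming factor gene Unc13b 4.60 ± 3.35 against 51.8 ± 16.7, 29.4 ± 11.2 and 42.4 ± 41.3. For these 3 genes each Mot_1 sum lay below all other sums, though Unc13b was not called against Mot_3. Of 31 release genes, 5 were called higher, among them Syt2, Vamp1, Cplx1 and Snap25, and 4 lower (Syt5, Stx1a, Unc13b, Rab3c). Over all genes these shares were 3.67% and 2.46%, and the list median was -0.19 beside 0.03.

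Genes of energy supply were higher as a group. The respiratory chain list (subunits of complexes I to V encoded in the nucleus) had 76 genes in the fit, of which 61 were called higher against the mean of the others and 0 lower, with a median log2 fold change of 0.74 beside 0.03 over all genes. In single comparisons 57 were called higher against Mot_2, 24 against Mot_3 and 48 against Mot_4, with 0 lower in each. The shares called higher over all genes were 2.88%, 0.635% and 4.29% in that order. In 63 of the 76 (82.9%) the Mot_1 level was above the mean of the others in every animal, against 8.07% of all genes in the fit. The list summed to 32886, 38969, 37847, 42230 and 46589 CPM in Mot_1, and the highest sum in any other cluster was 31819 CPM (Mot_3 of animal 5), so that the groups did not overlap. Sums differed between animals too, and in each of the 4 clusters animal 1 had the lowest sum and animal 5 the highest. Within batch 1 alone 21 of 77 members were called higher and within batch 3 alone 29 of 76, with 0 lower in each. With thinned cells it was 43 of 74, also with 0 lower.

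Single members show the size of the difference. Cox5a, a subunit of cytochrome c oxidase, stood at 1051, 1386, 1551, 1564 and 1829 CPM in Mot_1 against 655 ± 196, 881 ± 258 and 700 ± 160 in Mot_2, Mot_3 and Mot_4. Atp5b, the catalytic β subunit of ATP synthase, averaged 1861 ± 219 CPM against 810 ± 177, 1142 ± 180 and 1052 ± 138. Ndufa4, a cytochrome c oxidase subunit once assigned to complex I, averaged 1712 ± 436 CPM against 882 ± 378, 982 ± 273 and 982 ± 391, with log2 fold changes of 1.15 ± 0.14, 0.87 ± 0.13 and 0.92 ± 0.13. Sdha, the complex II flavoprotein gene, showed the smallest fold among the 61 at 465 ± 64.6 CPM against 307 ± 41.7, 342 ± 51.7 and 407 ± 67.3, and was called against Mot_2 alone of the 3.

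**Figure D3:**
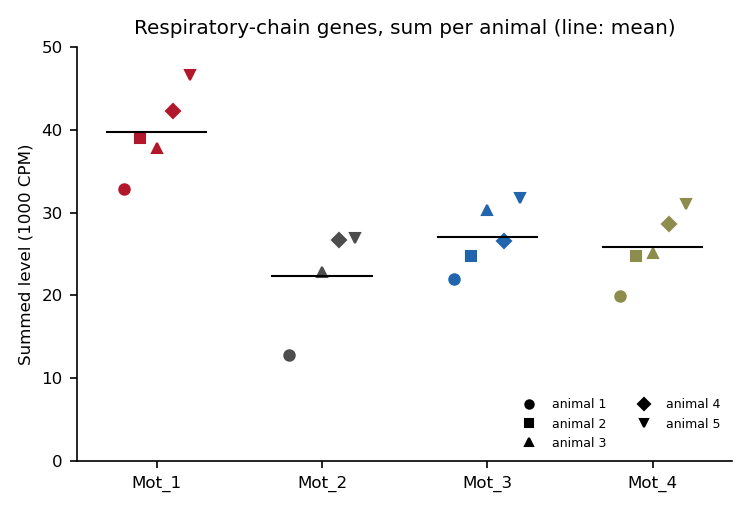
Summed level (in units of 1000 CPM) of the 76 respiratory-chain genes in each animal's sum of the 4 motor clusters; symbols mark the animal and lines the mean. The 5 Mot_1 sums, from 32886 to 46589 CPM, lie above all 14 sums of the other clusters.

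Since these nuclear genes were higher together, their promoters were searched for motifs of regulators known for respiratory genes. The NRF1 motif was the palindromic site in capitals in the first 3 sequences printed with this paragraph, which reads the same on both strands, and the ERR motif as TCAAGGTCA on either strand, in the 250 bases before each RefSeq start (GRCm38.p6). RefSeq promoters matched 62 of the 76 genes, with 67 promoters. NRF1 letters were in 4 of the 67 (5.97%), beside 1.60% of the promoters of all genes in the fit and 0.782% of all 32851 promoters. ERR letters were in 1 of the 67 (1.49%), beside 0.235% and 0.387%. Of the 56 promoters of respiratory genes called higher, 3 held NRF1 letters (5.36%) and 1 held ERR letters (1.79%). The NRF1 share was thus no higher than over the whole list. Both motifs were picked as known from respiratory genes, so these shares describe the list and not its level in Mot_1. The part of either regulator in that level was not tested. The 4 promoters of called genes that hold a motif are printed because they show where it lies, with the motif in capitals; the windows are chr5:115348959-115349208 (minus strand) for Cox6a1, chr17:56717512-56717761 (plus) for Ndufa11, chr5:108434400-108434649 (minus) for Atp5k and chr2:73911327-73911576 (minus) for Atp5g3.
Cox6a1: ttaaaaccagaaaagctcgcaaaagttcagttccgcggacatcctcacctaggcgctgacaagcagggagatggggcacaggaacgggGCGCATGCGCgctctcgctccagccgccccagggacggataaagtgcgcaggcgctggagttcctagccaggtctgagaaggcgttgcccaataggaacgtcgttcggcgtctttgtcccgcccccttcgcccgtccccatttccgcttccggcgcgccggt
Ndufa11: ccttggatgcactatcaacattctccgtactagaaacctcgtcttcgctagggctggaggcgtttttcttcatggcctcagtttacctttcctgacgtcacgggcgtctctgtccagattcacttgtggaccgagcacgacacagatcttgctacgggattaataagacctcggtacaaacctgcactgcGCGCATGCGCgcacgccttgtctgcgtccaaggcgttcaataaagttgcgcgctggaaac
Atp5k: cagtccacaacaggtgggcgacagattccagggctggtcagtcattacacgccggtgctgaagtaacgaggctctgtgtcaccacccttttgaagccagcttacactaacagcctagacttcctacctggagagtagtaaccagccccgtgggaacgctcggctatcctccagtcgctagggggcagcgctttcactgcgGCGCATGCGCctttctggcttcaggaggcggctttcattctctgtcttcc
Atp5g3: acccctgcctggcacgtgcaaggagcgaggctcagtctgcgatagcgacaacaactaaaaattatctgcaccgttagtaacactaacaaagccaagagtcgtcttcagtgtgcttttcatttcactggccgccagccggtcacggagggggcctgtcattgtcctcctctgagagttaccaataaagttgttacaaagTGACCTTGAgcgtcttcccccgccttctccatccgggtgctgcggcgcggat

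The first 3 hold the NRF1 letters, and Atp5g3 the ERR letters in reverse. Levels of Cox6a1, a cytochrome c oxidase subunit, were 452, 646, 651, 806 and 884 CPM in Mot_1 against 318 ± 121, 434 ± 130 and 351 ± 134, and those of Atp5g3, a ring subunit of ATP synthase, 1122, 1363, 1431, 1587 and 1832 CPM against 801 ± 179, 913 ± 224 and 889 ± 266. A match describes letters only and shows no binding.

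Glycolysis genes were higher with 10 of 16 called and 1 lower, beside 3.67% and 2.46% of all genes, and a list median of 0.60. In single comparisons 9 were called higher against Mot_2, 5 against Mot_3 and 8 against Mot_4. Aldoc, an aldolase, stood at 417, 412, 312, 317 and 344 CPM, above all sums of Mot_2 (33.4 ± 17.7), Mot_3 (132 ± 46.5) and Mot_4 (53.2 ± 40.2). Ldhb, the lactate dehydrogenase form that favours pyruvate, averaged 3072 ± 190 CPM against 1936 ± 290, 1559 ± 520 and 1626 ± 331, with no call against Mot_2. The lower member was Ldha, the form that favours lactate, at 75.9 ± 14.3 CPM against 82.8 ± 17.01, 103 ± 37.0 and 305 ± 73.6; it was called against Mot_4 and not against Mot_2 or Mot_3. Cytosolic ribosomal protein genes had 4 of 84 called higher and 0 lower, beside 3.67% and 2.46% of all genes, with a median of 0.23.

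Several neuronal genes were lower in Mot_1. Tcf7l2, a transcription factor that maintains thalamic identity, stood at 411, 362, 472, 412 and 420 CPM against 1145 ± 87.5, 865 ± 118 and 1042 ± 238. Each Mot_1 sum lay below all others, with log2 fold changes of -1.34 ± 0.12, -0.99 ± 0.12 and -1.25 ± 0.12. Of 24 thalamic transcription factor genes, Tcf7l2 and Foxp1 were called lower and Rorb, a nuclear receptor gene, higher (359 ± 37.8 CPM against 259 ± 151, 109 ± 58.8 and 77.9 ± 38.9, with no call against Mot_2). Foxp1 had no call against Mot_3, with a log2 fold change of -0.47 ± 0.30. Over all genes 3.67% were called higher and 2.46% lower.

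Other calcium-binding proteins contrasted with parvalbumin. Calb1, the calbindin gene and a marker of matrix-type thalamic neurons, stood at 204, 157, 157, 175 and 137 CPM in Mot_1 against 954 ± 111 in Mot_3 and 2080 ± 1152 in Mot_4. The range overlapped that of Mot_2 (313 ± 101), against which it was not called. Hpcal4, a neuronal calcium sensor gene, averaged 1.58 ± 0.99 CPM against 28.9 ± 7.78, 16.6 ± 3.75 and 76.1 ± 64.3. Of 17 calcium-binding protein genes, 2 were called higher (Pvalb and the calmodulin regulator Pcp4) and 6 lower (S100a10, Hpcal4, Calb2, Calb1, Necab1 and Necab2). Over all genes 3.67% were called higher and 2.46% lower.

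Of 28 glutamate receptor genes, 7 were called lower and 1 higher, beside 2.46% and 3.67% of all genes. The list median was -0.39, beside 0.03 over all genes. Grm5, the gene of the metabotropic receptor mGluR5, averaged 68.8 ± 22.4 CPM against 194 ± 41.3, 143 ± 31.0 and 168 ± 63.2. Cnih3, an AMPA receptor partner, averaged 14.1 ± 12.5 CPM against 202 ± 24.7, 36.0 ± 9.75 and 153 ± 66.0, and the kainate receptor gene Grik1 2.39 ± 3.15 CPM against 81.4 ± 11.2, 13.7 ± 10.3 and 70.3 ± 51.96. Against Mot_3 alone, Grm5, Cnih3 and Grik1 were not called. The AMPA receptor subunits went apart. Gria1 averaged 54.1 ± 25.2 CPM against 207 ± 58.0 in Mot_3, and Gria3, the member called higher, 354 ± 46.8 CPM against 169 ± 23.99 in Mot_3 and 106 ± 41.1 in Mot_4. Neither Gria1 nor Gria3 was called against Mot_2.

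Among HCN and calcium channel genes, 4 of 18 were called lower and 0 higher, beside 2.46% and 3.67% of all genes. Cacna1g, the T-type channel that carries thalamic bursts, averaged 198 ± 42.4 CPM against 382 ± 69.5, 302 ± 72.2 and 250 ± 81.0, and of the pairwise comparisons it was called against Mot_2 alone. Cacna1e, the R-type channel gene, averaged 1.75 ± 1.87 CPM against 44.3 ± 47.2 in Mot_2 and 47.7 ± 16.2 in Mot_4, and overlapped Mot_3 at 4.16 ± 2.47.

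Of 64 wiring and adhesion genes, 5 were called higher and 8 lower, beside 3.67% and 2.46% of all genes. The list median was -0.28, beside 0.03 over all genes. The cadherin gene Cdh8 stood at 26.9, 6.00, 12.2, 28.0 and 16.6 CPM against 112 ± 26.7, 81.0 ± 32.7 and 154 ± 39.1, below every other sum. Cntn5, a contactin, averaged 5.57 ± 3.85 CPM against 25.03 ± 4.66, 26.8 ± 12.7 and 74.4 ± 21.1. Pcdh8, a protocadherin, had 1 UMI in all of Mot_1, 24 in Mot_2, 459 in Mot_3 and 571 in Mot_4. Signalling enzyme genes had 4 of 39 called higher and 11 lower, beside the same shares of all genes. Camkv, a calmodulin-binding kinase-like protein of synapses, averaged 95.2 ± 31.3 CPM against 229 ± 31.5, 242 ± 49.2 and 523 ± 179, and Camk2d, a calmodulin kinase, 174 ± 78.0 against 506 ± 53.4, 325 ± 41.9 and 311 ± 108.

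Some genes had no UMI in any Mot_1 cell. The guanylate cyclase gene Gucy2c was found with 541 UMIs in Mot_3 and was at least 99.2-fold lower in Mot_1, and the heparan sulfate enzyme gene Hs3st3a1 was at least 133-fold lower than in Mot_4 (196 UMIs). Chrm1, the gene of the muscarinic M1 receptor, was at least 120.3-fold lower than in Mot_4 and at least 6.60-fold lower than in Mot_3. Low counts of these genes were not particular to Mot_1. Mot_2 had 0 UMIs of Gucy2c, 4 of Hs3st3a1 and 1 of Chrm1, and Mot_4 had 1 of Gucy2c. The adhesion receptor gene Adgrg6 was at least 49.9-fold lower than in Mot_2 and at least 147-fold lower than in Mot_4. These bounds use pooled counts and the floor of 3 counts over the 5 Mot_1 sums.

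Remaining groups are given with their calls against the mean of the others, a contrast in which 6.13% of all genes in the fit were called. Extracellular matrix genes had 4 of 16 called higher and 1 lower, and the higher ones included the perineuronal net genes Bcan (65.9 ± 21.9 CPM against 6.61 ± 5.79 in Mot_2, 25.98 ± 11.2 in Mot_3 and 2 UMIs in Mot_4) and Hapln4 (292 ± 41.9 CPM against 145 ± 62.6, 139 ± 13.6 and 34.6 ± 23.5). Bcan was not called against Mot_3, nor Hapln4 against Mot_2 or Mot_3. GABA and glycine receptor genes had 2 of 17 called higher and 1 lower, and neuromodulator receptor genes 1 of 19 in each direction, the higher being the dopamine receptor gene Drd1 at 8.03 ± 4.17 CPM. Mot_3 had Drd1 at 7.18 ± 5.07 CPM, with no call against it. Neuropeptide genes had 1 of 9 in each direction, namely Npy and the lower Vgf (15.0 ± 5.32 CPM against 167 ± 13.8, 51.3 ± 28.1 and 122 ± 75.6). Vgf was not called against Mot_3, and Npy was called against Mot_4 alone. Transmitter identity genes had 0 of 7 called and stress response genes 0 of 11. Among 11 immediate early genes, which record recent activity, Jun was called lower (40.2 ± 22.6 CPM against 130 ± 38.1, 85.2 ± 29.9 and 85.7 ± 50.2, with no call against Mot_3) and 0 higher.

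The anchor genes Tnnt1, Necab1 and Calb2, which divide thalamic neurons elsewhere in the series, were low and mixed in Mot_1. A cell was put in the class of whichever of them had the highest CPM, which gave 39 Tnnt1 cells, 33 Necab1 cells and 6 Calb2 cells, with 19 cells in no class. Mot_1 cells with no UMI of any anchor numbered 18, and 46 had UMIs of 1 anchor, 27 of 2 and 6 of all 3. The Tnnt1 class made up 41.0% ± 14.1 of Mot_1 cells over animals, and 26.5% when cells were thinned to equal depth. Calb2 cells came from animals 1 and 2 alone, with 3 in each, and these animals had the most deeply read Mot_1 cells. The Calb2 class made up 10.0% ± 13.7 of Mot_1 cells over animals, and 1.67% with thinned cells. Calb2 had a UMI in 22 Mot_1 cells, and in 5 after thinning. The part of depth in this class was not tested. Tnnt1 stood at 63.2, 21.9, 117, 35.6 and 43.8 CPM, against 335 ± 166 in Mot_2 and 45.6 ± 4.89 in Mot_3, and Necab1 at 11.9, 35.2, 44.4, 168 and 76.6 CPM, against 288 ± 102 in Mot_3. Against Mot_3, Tnnt1 and Calb2 had log2 fold changes of 0.08 and -0.10 with no call, and Tnnt1 had -0.22 with no call against Mot_4. Mot_4 also had no single class in most cells, with 42.9% ± 17.2 in the Calb2 class and 35.6% ± 22.1 in the Necab1 class. The mix of classes is therefore not particular to Mot_1.

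The authors also gave each cell a joint cluster, numbered over all 5 projection systems. Mot_1 was spread over 5 of them: 45 cells in joint cluster 1, 23 in joint cluster 4, 18 in joint cluster 7, 9 in joint cluster 3 and 2 in joint cluster 2. Joint cluster 4 took 10 cells each from animals 1 and 2 and 1 each from the rest, and joint cluster 1 took 18, 11 and 14 cells from animals 3, 4 and 5 and 1 each from the rest. This division follows sequencing batch, and also depth, with median UMIs of 300354 in joint cluster 4 and 150463 in joint cluster 1. The 2 groups had similar levels of the leading genes: Pvalb at 327 CPM in joint cluster 1 and 422 in joint cluster 4, Stac2 at 81.3 and 78.4, Kcna1 at 329 and 354, and Nefl at 1440 and 1320. Across 12011 genes their log2 levels had a Pearson r of 0.915, given as a description since genes are not independent. That lies between the values with Mot_3, which were 0.917 for joint cluster 1 and 0.911 for joint cluster 4.

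The 18 Mot_1 cells of joint cluster 7 differed from them. They came from animals 3, 4 and 5 (3, 7 and 8 cells), had a median of 47923 UMIs, and 16 of them were in the Necab1 class. Elsewhere in the series joint cluster 7 is mostly prefrontal, with 212 of its 259 cells. Pvalb stood at 24.4 CPM there, Kcna1 at 46.7, Scn4b at 10.1, Nefl at 269 and Nefm at 522 (3007 in joint cluster 1), and Syt2 had a UMI in 0 of 18 cells, which allows up to 16.7% of cells with a UMI. That limit covers detection and not expression, as Syt2 was detected in 23 of 45 cells of the more deeply read joint cluster 1. After thinning to equal depth Syt2 was detected in 22 of 45 cells of joint cluster 1 and 0 of 18 of joint cluster 7. Necab1 stood at 556 CPM against 30.8 in joint cluster 1, Foxp1 at 195 against 20.4, Tcf7l2 at 869 against 348 and Slc17a6 at 1111 against 656. Prkcd, a protein kinase C gene typical of relay neurons, was lower at 576 CPM against 2372. Each of these differences held its direction in animals 3, 4 and 5; for Necab1 the 3 animals had 506, 547 and 581.8 CPM in joint cluster 7 and 21.2, 46.7 and 10.2 in joint cluster 1. The across-gene r of this group was 0.802 with the joint cluster 1 cells of Mot_1, 0.834 with prefrontal cells of joint cluster 7 and 0.839 with Mot_2. After thinning, Pvalb was detected in 2 of 18 joint cluster 7 cells and 33 of 45 joint cluster 1 cells, and Necab1 in 17 and 9.

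**Figure D4:**
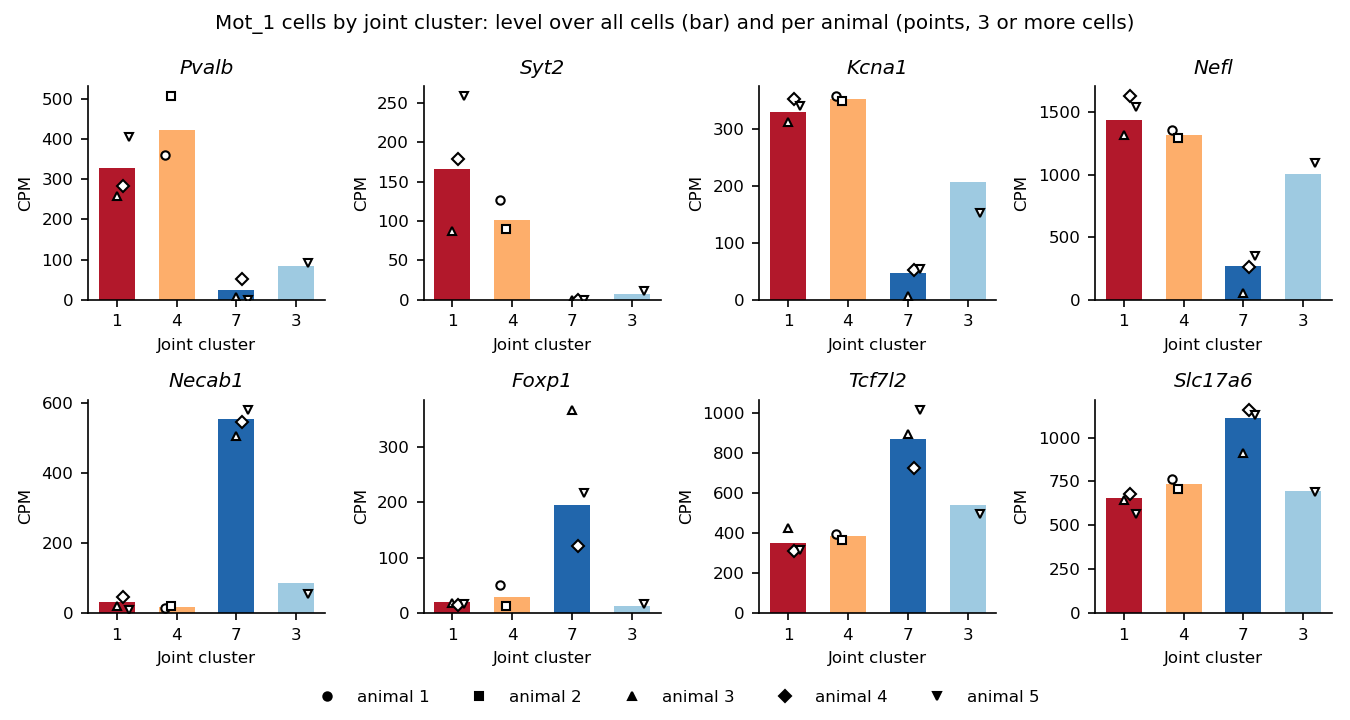
Level (CPM) of 8 genes in Mot_1 cells grouped by the authors' joint cluster; bars pool all cells of the group and points are animals with 3 or more cells. Pvalb, Syt2, Kcna1 and Nefl are low in joint cluster 7, and Necab1, Foxp1, Tcf7l2 and Slc17a6 are high there.

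By a rule chosen after its values were seen (50 CPM or more on the higher side, same direction in animals 3 to 5, largest ratio), the genes highest in joint cluster 7 over joint cluster 1 included Scn3b, Fnbp1l, Lypd1, Ldb2, C1ql3, Gprin3, Htr7, Rnf169 and Npas4. Scn3b had 330, 324 and 285 CPM in joint cluster 7 of animals 3 to 5 and 1.06, 1.17 and 1.14 in joint cluster 1. On the lower side were Cbln2, Syt2, Lgi2, Bphl, Laptm4b, Phf23, Lgals1, Tmem120a, Nol3 and Cnn3. Cbln2, a synapse organizer, was at 0 CPM against 245, 266 and 342. Animals 1 and 2, which had no joint cluster 7 cell, were also the animals with the lowest Scn3b levels in Mot_1. The authors' joint clusters may rest on the same counts, so these values are a description.

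When Mot_1 was cut to the 68 cells of joint clusters 1 and 4, a choice made after seeing the data, most of the folds given next were larger. The cut left out the cells of joint clusters 7, 3 and 2, and the part of each in the change was not tested. Against the mean of the other clusters the log2 fold change of Kcna1 went from 1.65 ± 0.20 to 1.83 ± 0.20, of Nefl from 1.21 ± 0.12 to 1.38 ± 0.13, of Cplx1 from 1.32 ± 0.11 to 1.48 ± 0.11, of Tcf7l2 from -1.20 ± 0.10 to -1.37 ± 0.11 and of Necab1 from -1.61 ± 0.33 to -2.86 ± 0.33. The fold of Slc17a6 went the other way, from 0.29 ± 0.09 to 0.25 ± 0.10. Respiratory chain genes called higher went from 61 to 65 of 76.

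Of the authors' 16 other clusters, the one most like Mot_1 was Som_1 of the somatosensory system, with a Pearson r of 0.951 across 12011 genes on the log2 scale. It was followed by Mot_3 (0.9445), Vis_1 (0.930) and by Pfr_1 and Vis_2 (0.9255 each), while Mot_4 had 0.883 and the auditory Aud_3 the lowest value, 0.780. Som_1 comes from other animals, whereas Mot_3 shares animals and preparations with Mot_1. Som_1 shared much of the set described above (n = 3 animals): Kcna1 at 351 ± 48.1 CPM, Kcnab3 at 122 ± 17.4, Scn4b at 152 ± 16.9, Nefm at 3098 ± 451, Cplx1 at 2280 ± 269, Pvalb at 178 ± 45.3 and Tcf7l2 at 399 ± 59.7. Other levels were unlike those of Mot_1, with Stac2 at 1.99 ± 2.45 CPM, Car8 at 14.5 ± 21.5, Syt2 at 36.4 ± 18.6, Tnnt1 at 525 ± 44.2 and Necab1 at 0.723 ± 0.464. The differences between Som_1 and Mot_1 were not tested.

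The comparison of batch 3 (animals 4 and 5) with batch 1 (animals 1 and 2) within Mot_1 does not use the contrast between clusters and was tested with edgeR's quasi-likelihood test on 5 sums and 13910 genes. The cells compared differed in joint cluster, since 20 of the 24 batch 1 cells were in joint cluster 4, and the batch 3 cells were mostly in joint clusters 1 and 7; the part of this in the result was not tested. At an adjusted p threshold of 0.05, 5 genes were higher in batch 3 and 18 lower, 0.165% of the genes together. Syp, the gene of the vesicle protein synaptophysin, stood at 432 and 484 CPM in batch 1, 92.03 in animal 3 and 76.3 and 84.9 in batch 3, and fell by 2.57 ± 0.24 on the log2 scale (edgeR adjusted p = 0.0041). Vamp2, a vesicle fusion protein gene, stood at 416 and 388 CPM against 85.7 and 87.2, with 112 in animal 3 (edgeR adjusted p = 0.00738). The microtubule genes Mapre3 and Tubb4a fell by 2.78 ± 0.34 and 2.76 ± 0.31 (edgeR adjusted p = 0.0104 and 0.00934). Gapdh, the glycolytic enzyme often used as a reference gene, fell from 3148 and 3012 CPM to 1671 and 1418 (edgeR adjusted p = 0.00934).

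Genes that rose included Elob, an elongin subunit, from 181 and 219 CPM to 503 and 515 (edgeR adjusted p = 0.0457), and Ckm, the muscle creatine kinase gene, from 104 and 158 CPM to 443 and 572 (edgeR adjusted p = 0.0228). Hcrt, the orexin precursor gene known from hypothalamic neurons, had 0.306 and 0 CPM in batch 1, 0 in animal 3 and 83.1 and 50.4 in batch 3 (edgeR adjusted p = 0.0129). Leaving out animal 3 ended the calls for Hcrt, Ckm and Elob, and cut all calls from 23 to 8. The other clusters showed the same steps: Syp in Mot_3 stood at 490, 577, 110, 195 and 120 CPM in animals 1 to 5, and Hcrt in Mot_3 at 0, 0, 0, 109.9 and 110.0. Sequencing batch, age, sort date and depth cannot be told apart in these animals.

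**Figure D5:**
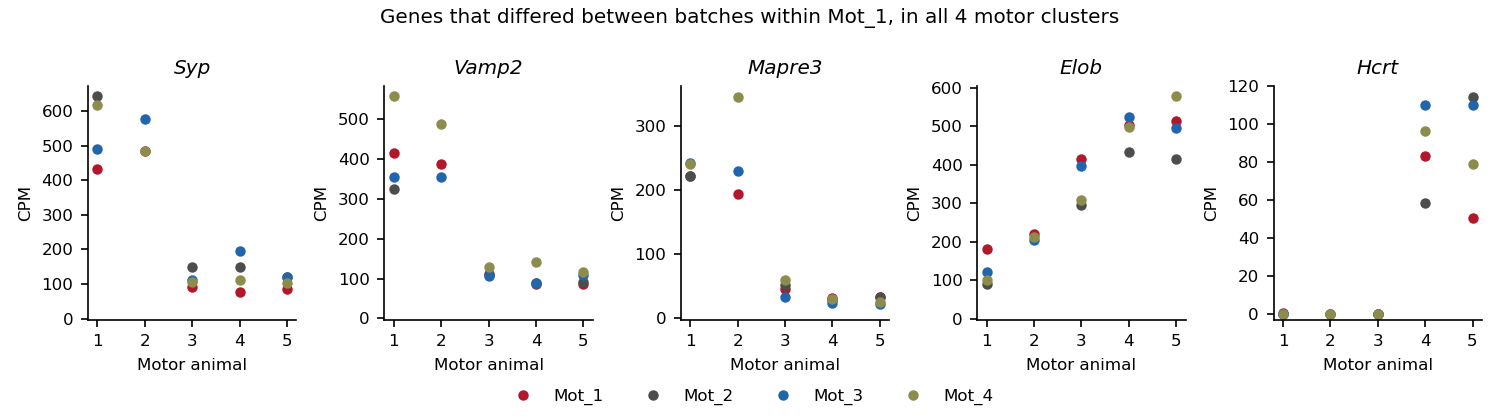
Level (CPM) of 5 genes that differed between batches within Mot_1, shown for the sums of all 4 motor clusters against the animal. In each cluster Syp, Vamp2 and Mapre3 are high in animals 1 and 2 (Mot_2 has no sum for animal 2) and low in animals 3 to 5, while Hcrt is above 50 CPM in animals 4 and 5 alone.

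The genes Pvalb, Syt2, Stac2, Kcna1, Kcnab3 and Scn4b, which lead the comparison of clusters, had no call between the batches, with edgeR adjusted p values of 0.374, 0.646, 0.979, 0.617, 0.906 and 0.992. With 2 animals a batch, these values do not show that the levels were alike.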

How the data were processed

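The values are UMI counts per gene and cell, deposited by the authors as 1 table of 1972 cells, 36589 genes and 90 spike-ins. Per the submitters' processing notes the tools included cutadapt 1.16, STAR 2.5.3 and Picard 1.12, with build mm10; the annotation and the counting rule are not given in the sources used here. Clusters and joint clusters are the authors', and how they were made is not given there either, nor how doublets were treated. Cells of 1 cluster and animal (at least 5) were summed, and the replicate is the animal. Depth per sum and per cell is given with the results. Sums were fitted with edgeR 4.0.16 (TMM, filterByExpr, quasi-likelihood, Benjamini-Hochberg adjustment over all genes) with the animal as a block, since the clusters of 1 animal share its preparation, and within Mot_1 with sequencing batch. Depth was compared by two-sided exact paired permutation (scipy 1.17.1). DESeq2 1.42.0, other filters and scalings, thinning and left-out animals or batches were alternatives.

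Genes were named by rule: past an adjusted p of 0.05, at least 10 CPM on the higher side and the same direction in every animal, the 15 with the largest fold each way (8 for pairwise comparisons, 6 for batches), with members of gene lists and the genes that varied most between cells. Members and lists were chosen with earlier results of these data known, and the respiratory and ribosomal lists were built from symbol patterns in the table. Confidence intervals and floors of 3 counts cover counting error only. Promoter sequences are RefSeq's (GRCm38.p6) and gene positions are those of the mm10 annotation. Some genes that the rule or a list would name are not reported here.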

Additional observations from a re-analysis of the deposited data

Results flagged for a closer look

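Cela1, an elastase gene, stood at 24.2 CPM in Mot_1 of animal 4, while the other 4 animals had 13.8 to 16.4 CPM. The gap to the nearest animal was 0.748 of the whole range, above Dixon's critical value of 0.71 for 5 samples. It was 1 of 23 groups of 5 animals checked, and chance alone flags about 5% of groups.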

How the results depend on the processing

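Among the named genes, 87 results under 1600 alternatives in all kept their direction in each. Of these alternatives, 1247 kept their side of the threshold and 353 lost the call. Leaving out flagged cells could change nothing, since 0 of them had a cluster, and leaving out batch 2 repeats leaving out animal 3. With thinned cells 32 results kept the call and 7 lost it, and the rest had no value there. The counts of called genes moved more, and the cause was not tested. With DESeq2 the counts were 1314 against the mean of the others, 1232 against Mot_2, 479 against Mot_3, 1657 against Mot_4 and 672 between batches. Leaving out 1 animal gave 421 to 706, 261 to 558, 55 to 241, 610 to 830 and 8 to 249 in that order. Against Mot_2, leaving out animal 1 gave 399, animal 3 278, animal 4 376 and animal 5 261; against Mot_3, animal 2 gave 86, animal 3 77, animal 4 68 and animal 5 55; against Mot_4, animal 3 gave 627 and animal 5 610; and between batches, animal 1 gave 187, animal 2 249, animal 3 8 and animals 4 and 5 13 each.

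A minimum of 10 cells per sum gave 1031 against Mot_2 and 359 against Mot_3. No filter on low counts gave 390 against Mot_3 and 215 between batches, where 1 common dispersion gave 36. Without batch 2 the counts were 454, 278, 77 and 627 against the mean, Mot_2, Mot_3 and Mot_4, and without batch 3 they were 194, 65, 10 and 322. Of the alternatives chosen after seeing the data, batch 1 alone gave 143, 90, 3 and 285, batch 3 alone 240, 160, 64 and 289, and the cells of joint clusters 1 and 4 gave 1183, 1017 and 443 against the mean, Mot_2 and Mot_3. The Tnnt1 class share was 26.5% with thinned cells, and with a minimum of 50 CPM 0 of the 15 genes that varied most were shared, by construction, since all 15 lie under that minimum. With no replicate block for the animal and batch as a covariate, the counts were 836, 750, 166 and 1009, each within 1.5 times the blocked ones. Stac2 lost its calls against Mot_2 and Mot_3 in batch 1 alone and without batch 3, and Pvalb its call against Mot_3 in batch 1 alone. Between batches, 1233 genes had an unadjusted edgeR p under 0.05. Depth limits genes near the floor of 3 counts, whose absence in a cluster was not detectable below it.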

Other observations

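Among Mot_1 genes of at least 20 CPM, 15 varied most between cells beyond counting noise, measured as the squared coefficient of variation in excess of Poisson. All 15 lie near that minimum, with means of 20.1 to 34.5 CPM. Podxl, the gene of podocalyxin, a sialomucin that keeps membranes apart, had UMIs in 25 of 97 cells, and 90.2% of its UMIs were in cells of joint cluster 4. Its levels were 33.9 and 58.2 CPM in animals 1 and 2 and 2.90, 2.54 and 4.53 in animals 3 to 5. Ighm, the immunoglobulin heavy chain gene known from B cells, had the highest excess at 9.69, with UMIs in 17 cells of all 5 animals and 77.9% of its UMIs in 5 cells. Adcyap1r1, the receptor gene for the peptide PACAP, had UMIs in 26 cells, with 70.2% of them in 5 cells. Neb, the nebulin gene known from muscle, had UMIs in 30 cells and levels of 51.9, 29.8, 3.22, 37.3 and 50.4 CPM in animals 1 to 5. The median excess over the 6692 genes ranked was 1.55, and the anchor genes Tnnt1 and Necab1 had 4.86 and 4.98. The other 11 genes, Mtg2, Phf6, Phkb, Tex15, Rrm1, Tmem204, Ikbkg, Mllt1, Ccdc157, Adprm and Cda, had excesses of 7.70 to 9.42 and were each found in 15 to 27 cells.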
